A study of Homo sapiens with 21 samples.

Results

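Doxycycline was used to switch on a GSX2 transgene in human neural progenitor cultures, and RNA was compared after 12 h, while the drug was still present, with cultures of the same age that had not received it. The comparison holds 6 of the 21 libraries of the series, 3 with doxycycline (Dox) and 3 without (NoDox), and it was read across the 19655 of 61268 features in the count table that passed a filter on low counts. The cells were H9, an established human embryonic stem cell line, carrying a 2xFLAG-tagged wild-type GSX2 under the doxycycline-responsive TRE3G promoter, and they were taken through an LGE-like differentiation. That protocol first blocked BMP, TGF-beta and WNT signalling (LDN193189, SB431542 and, at the start, XAV939), and then used the WNT secretion inhibitor IWP2 together with Activin A. Dox libraries come from cultures given 100 ng/mL doxycycline for 12 h from day 10. NoDox libraries come from cultures that carried the transgene but did not get the drug. Libraries of the same line at day 10, before the drug, and Dox and NoDox libraries at 24 h, 12 h after the drug was withdrawn, serve for comparison, with 3 in each group. Doxycycline was not given to cells that lack the transgene, so an effect of the drug and an effect of GSX2 cannot be told apart. Whether the line is 1 clone is not given in the sources used here. Nothing in the labels says that the 3 libraries of a group came from separate cultures. The p-values thus measure the spread between libraries of a group, pooled over all 7 groups of the series, and this spread may be technical.

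GSX2 is a homeodomain transcription factor of the lateral ganglionic eminence (LGE), the ventral forebrain germinal zone that gives rise to striatal projection neurons and olfactory interneurons. In mouse, loss of Gsx2 lets dorsal, cortical progenitor genes spread into the LGE, and the related gene Gsx1 takes over part of its role. Homeodomain proteins of this kind bind DNA through a core of TAAT letters, and GSX factors are known mainly as repressors that can recruit Groucho/TLE corepressors. The genes that mark the pallial side of this border include EMX2, PAX6 and the neurogenic factors of the cortex.

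Total counts were 24.52, 22.72 and 17.52 M in the Dox libraries, against 19.59, 21.82 and 22.66 M in the NoDox libraries. A gene with 0 reads could lie as high as 0.107 to 0.153 CPM in these libraries (3 counts, counting error only), where CPM stands for read counts scaled to the library size after TMM normalisation between libraries. Dox replicate 3 stood apart. Among 8872 genes of at least 20 CPM, 5.68% lay more than 0.5 log2 units from the mean of the other replicates in Dox replicate 3, against 1.66% in Dox replicate 1, 0.0902% in Dox replicate 2 and at most 0.169% in any NoDox library. The TMM factors were 1.121 to 1.145 in the Dox libraries and 1.003 to 1.004 in the NoDox libraries, and scaling by library totals alone raised the median log2 fold change of all genes by 0.18. Fold changes are given as log2 of Dox over NoDox ± an approximate standard error (n = 3 per group), and a gene counts as higher or lower where edgeR's quasi-likelihood test with Benjamini-Hochberg adjustment gave an adjusted p below 0.05.

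The transgene and GSX2 were the check of the labels. The transgene row had 951, 932 and 745 CPM in the Dox libraries, against 0.153, 0.0457 and 0.484 CPM in the NoDox libraries. The GSX2 row (chromosome 4, 54099523 to 54102498, hg38) had 277, 289.7 and 296 CPM in the Dox libraries, against 10.6, 8.18 and 7.08 CPM in the NoDox libraries, a log2 fold change of 5.07 ± 0.20, edgeR adjusted p = 9.7e-13. All Dox libraries were far above all NoDox libraries in both rows, and the NoDox level of GSX2 lay near that at day 10 (12.2, 8.36 and 7.78 CPM). Transgene reads may be counted in the GSX2 row, so reads of the native gene and of the transgene cannot be told apart there. GSX1, the close relative of GSX2, had 1.68, 1.19 and 1.36 CPM in the NoDox libraries and 0 reads in every Dox library, at least 34.6-fold lower with 3 counts over the Dox group as the floor.

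With Dox, 3898 genes were higher, 19.8% of those tested, and 3912 were lower, 19.9%. Changes of at least 2-fold were made by 1092 genes that were higher (5.56%) and 930 that were lower (4.73%). The lowest Dox library lay above the highest NoDox library in 4660 genes (23.7%), the highest Dox library lay below the lowest NoDox library in 4548 (23.1%), and the libraries overlapped in 10447. Without Dox replicate 3 there were 3771 genes higher and 3987 lower, of which 1034 and 920 changed by at least 2-fold. The balance rested on the scaling, since scaling to library totals in place of TMM gave 7340 higher and 2213 lower genes, or 76.8% of calls higher, where TMM gave 49.9%. Among protein-coding genes 23.3% were higher and 22.3% lower, and among 1477 long noncoding RNAs 11.1% were higher and 18.0% lower. In bulk RNA, fewer cells of a type and less RNA per cell cannot be told apart, here and in all that follows.

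The largest decreases were taken from genes that averaged 20 CPM or more and whose Dox and NoDox libraries did not overlap. They included EOMES, EDNRB, EMX2, SOX21, SHISA2, EMX2OS, RASGRP1, FZD5, NOS2, FEZF1, CA2 and RMST. EMX2, a homeobox factor that patterns the cortex, had 9.30, 8.93 and 10.4 CPM in the Dox libraries, against 269.7, 233 and 238 CPM in the NoDox libraries (log2 fold change -4.70 ± 0.11, edgeR adjusted p = 6.75e-22). EMX2OS, the antisense transcript that overlaps it, had 10.1, 10.3 and 9.33 CPM in the Dox libraries, against 212, 216 and 220.2 CPM in the NoDox libraries (-4.44 ± 0.12, edgeR adjusted p = 8.78e-20). Whether counting used strand is not given in the sources used here, so reads of EMX2 and EMX2OS may not be told apart. EOMES, the T-box factor of intermediate cortical progenitors, had 1.75, 1.42 and 1.33 CPM in the Dox libraries, against 82.9, 61.5 and 59.2 CPM in the NoDox libraries (-5.47 ± 0.17, edgeR adjusted p = 6.07e-18). FEZF1, a zinc finger repressor of the early forebrain, had 38.0, 41.1 and 42.0 CPM in the Dox libraries, against 459.5, 479 and 474 CPM in the NoDox libraries (-3.54 ± 0.07, edgeR adjusted p = 2.25e-25). For each of these genes the Dox libraries lay close together and far below the NoDox libraries.

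EDNRB, the endothelin B receptor, had 2.40, 1.62 and 2.5 CPM in the Dox libraries, against 86.3, 95.7 and 79.2 CPM in the NoDox libraries (-5.34 ± 0.13, edgeR adjusted p = 2.59e-22). FZD5, a Frizzled receptor for WNT ligands, had 41.2, 42.5 and 36.0 CPM in the Dox libraries, against 443, 657 and 606 CPM in the NoDox libraries (-3.83 ± 0.18, edgeR adjusted p = 6.24e-12). SHISA2, which holds WNT and FGF receptors back in the endoplasmic reticulum, had 9.98, 9.39 and 7.80 CPM in the Dox libraries, against 212, 214 and 204 CPM in the NoDox libraries (-4.52 ± 0.09, edgeR adjusted p = 3.11e-25). These 3 genes had NoDox libraries of 79.2 CPM or more, and no Dox library above 42.5 CPM. RASGRP1, an exchange factor that activates RAS, had 12.4, 10.7 and 10.0 CPM in the Dox libraries, against 155, 174 and 172 CPM in the NoDox libraries (-3.91 ± 0.12, edgeR adjusted p = 8.65e-19). NOS2, the inducible nitric oxide synthase, had 32.4, 30.7 and 31.8 CPM in the Dox libraries, against 419.5, 426 and 436 CPM in the NoDox libraries (-3.76 ± 0.08, edgeR adjusted p = 3.83e-24). CA2, a carbonic anhydrase, had 13.2, 14.7 and 19.1 CPM in the Dox libraries, against 150.1, 184 and 174 CPM in the NoDox libraries (-3.45 ± 0.11, edgeR adjusted p = 2.86e-17). SOX21, a SOX factor of neural progenitors, had 3.76, 4.62 and 5.20 CPM in the Dox libraries, against 103, 122 and 114 CPM in the NoDox libraries (-4.66 ± 0.12, edgeR adjusted p = 2.93e-22). RMST, a long noncoding RNA of neural differentiation, had 3.00, 4.73 and 4.23 CPM in the Dox libraries, against 36.6, 38.9 and 41.0 CPM in the NoDox libraries (-3.29 ± 0.12, edgeR adjusted p = 1.3e-19).

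The promoters of genes that fell were searched for TAATTA, the 6 letters that many homeodomains bind, which read the same on both strands. RefSeq promoters (GRCh38.p14, 250 bases before to 50 after the start site) matched 12958 of the 19655 genes tested, and 2.21% of them held TAATTA. Among genes lower by at least 2-fold it was 30 of 587 promoters, or 5.11%. Among genes higher by at least 2-fold it was 19 of 674, or 2.82%, and among all other genes it was 2.03%. The median GC content of the promoters was 61.7% for the lower genes, 66.0% for the higher genes and 65.0% for all others, and its part in the shares was not tested. Among genes averaging 5 CPM or more the shares were 4.7%, 1.45% and 1.71% for the lower, higher and other genes. Of the decreases named above, EMX2 was the one whose RefSeq promoter held the letters in this window. EMX2OS and NOS2 matched no RefSeq promoter, and whether CA2 matched one is not shown. Of the 30 lower genes with the letters, 7 had a mean of at least 20 CPM. The 250 bases before the start site of the 3 of these that fell furthest, and of HEG1 as an example on the minus strand, are shown because they place the letters beside the size of the decrease, with TAATTA in capitals and the rest in lower case.
EMX2: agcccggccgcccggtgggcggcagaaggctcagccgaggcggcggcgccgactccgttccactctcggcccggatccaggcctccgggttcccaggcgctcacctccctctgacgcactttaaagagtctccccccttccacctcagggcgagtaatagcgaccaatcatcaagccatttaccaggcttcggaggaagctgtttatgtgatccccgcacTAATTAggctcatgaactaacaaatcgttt
GCNT1: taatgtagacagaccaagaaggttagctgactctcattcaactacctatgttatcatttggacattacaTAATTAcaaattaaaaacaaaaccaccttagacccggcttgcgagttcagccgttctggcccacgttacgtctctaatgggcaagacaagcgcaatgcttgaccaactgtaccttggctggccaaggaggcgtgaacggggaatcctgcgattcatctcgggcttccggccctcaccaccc
SOX2-OT: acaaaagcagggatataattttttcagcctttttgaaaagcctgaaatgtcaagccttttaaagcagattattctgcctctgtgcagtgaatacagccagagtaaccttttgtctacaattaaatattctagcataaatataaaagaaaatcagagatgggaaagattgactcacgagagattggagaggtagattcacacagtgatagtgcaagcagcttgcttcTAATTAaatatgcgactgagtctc
HEG1: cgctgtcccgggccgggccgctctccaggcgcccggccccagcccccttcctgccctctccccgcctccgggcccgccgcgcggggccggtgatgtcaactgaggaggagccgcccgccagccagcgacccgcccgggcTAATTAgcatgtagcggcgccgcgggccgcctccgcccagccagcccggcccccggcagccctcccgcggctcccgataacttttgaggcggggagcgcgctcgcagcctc
These windows lie at chr10:117542496-117542745 for EMX2, chr9:76393619-76393868 for GCNT1 and chr3:181056430-181056679 for SOX2-OT on the plus strand, and at chr3:125055998-125056247 for HEG1 on the minus strand. The letters begin 30 bases before the start site in EMX2, 181 in GCNT1, 24 in SOX2-OT and 111 in HEG1. The count table's annotation starts EMX2 at 117542445, upstream of the RefSeq start site, so the window lies within that gene's span there. A match describes the letters and not a bound site.

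GCNT1, a glycosyltransferase that branches O-linked sugars, had 9.30, 8.43 and 9.38 CPM in the Dox libraries, against 41.4, 42.5 and 44.5 CPM in the NoDox libraries (-2.24 ± 0.10, edgeR adjusted p = 9.1e-18). SOX2-OT, the long noncoding RNA whose intron holds SOX2, had 7.65, 8.04 and 8.31 CPM in the Dox libraries, against 36.4, 37.9 and 36.1 CPM in the NoDox libraries (-2.20 ± 0.09, edgeR adjusted p = 3.83e-18). HEG1, a heart-development membrane protein, had 42.1, 37.7 and 28.8 CPM in the Dox libraries, against 76.3, 74.3 and 77.9 CPM in the NoDox libraries (-1.07 ± 0.11, edgeR adjusted p = 8.93e-09). The 3 Dox libraries lay below the 3 NoDox libraries in each of them. DIPK2A, AFF2 and CELF2 were the other genes of this kind, with log2 fold changes of -1.94 ± 0.08, -1.37 ± 0.12 and -1.05 ± 0.08.

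**Figure D1:**
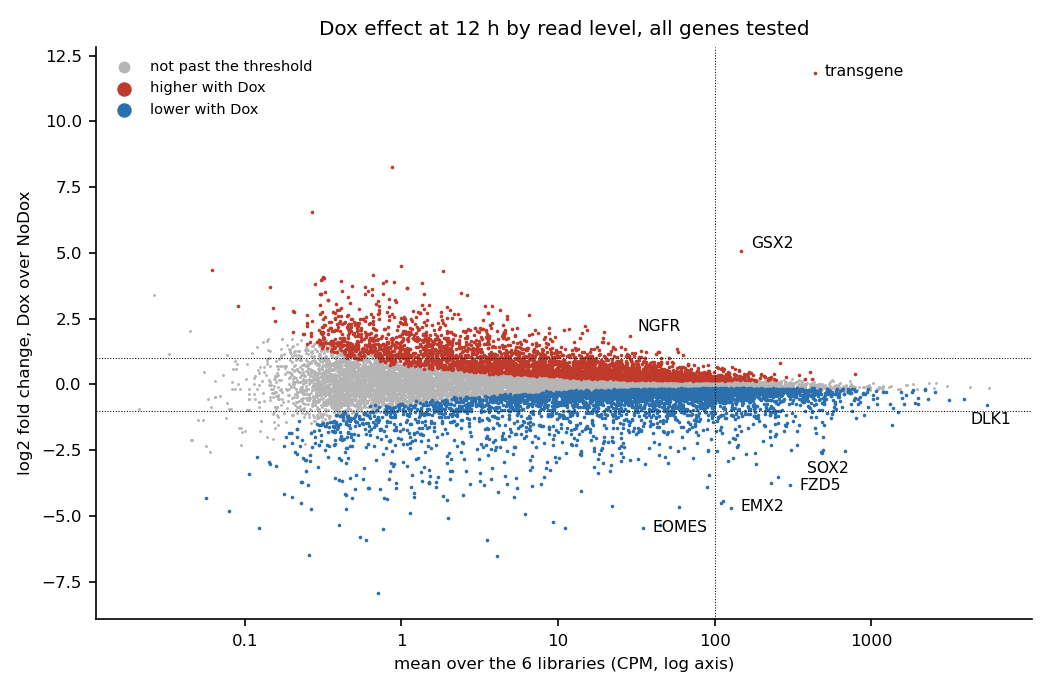
Log2 fold change of Dox over NoDox at 12 h (y axis) against the mean of the 6 libraries in CPM (x axis, log scale) for the 19655 genes tested, with genes higher with Dox in red, lower in blue and not past the threshold in grey; dotted lines mark 2-fold changes and 100 CPM. To the right of 100 CPM, 114 genes lie below the lower line and 2 above the upper line, GSX2 and the transgene.

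Fewer well-read genes rose by 2-fold than fell. Among genes of 20 to 100 CPM, 35 were higher and 182 lower by at least 2-fold. Of the genes that averaged 20 CPM or more, the 12 that rose most, besides GSX2 and the transgene, were NGFR, NKD1, FBLN2, KIAA0513, INPP5J, GNG7, HELZ2, JAG2, CNNM4, HLA-B, BCAM and SPEG. NGFR, the p75 neurotrophin receptor, had 45.8, 48.7 and 40.5 CPM in the Dox libraries, against 12.9, 11.4 and 13.4 CPM in the NoDox libraries (log2 fold change 1.84 ± 0.10, edgeR adjusted p = 2.55e-15). At day 10 NGFR had 26.6, 23.9 and 23.5 CPM, so the NoDox libraries lay below and the Dox libraries above the starting level. NKD1, a WNT antagonist that binds Dishevelled, had 35.2, 33.8 and 24.8 CPM in the Dox libraries, against 9.94, 10.2 and 11.8 CPM in the NoDox libraries (1.56 ± 0.12, edgeR adjusted p = 4.56e-12). JAG2, a Notch ligand, had 29.6, 34.8 and 35.0 CPM in the Dox libraries, against 13.7, 12.9 and 13.0 CPM in the NoDox libraries (1.33 ± 0.09, edgeR adjusted p = 3.45e-13). GNG7, a G protein gamma subunit that is abundant in striatum, had 39.2, 40.9 and 35.8 CPM in the Dox libraries, against 15.0, 14.4 and 15.6 CPM in the NoDox libraries (1.36 ± 0.08, edgeR adjusted p = 1.84e-14). Dox replicate 3 was the lowest Dox library for NGFR, NKD1 and GNG7.

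HELZ2, a helicase and nuclear receptor coactivator, had 88.2, 89.7 and 69.0 CPM in the Dox libraries, against 34.9, 32.3 and 30.7 CPM in the NoDox libraries (1.34 ± 0.08, edgeR adjusted p = 5.25e-14). INPP5J, an inositol polyphosphate phosphatase, had 34.5, 31.6 and 32.1 CPM in the Dox libraries, against 13.2, 11.9 and 12.1 CPM in the NoDox libraries (1.40 ± 0.10, edgeR adjusted p = 1.4e-12). CNNM4, a magnesium transporter, had 30.9, 33.5 and 27.9 CPM in the Dox libraries, against 12.0, 13.4 and 13.0 CPM in the NoDox libraries (1.27 ± 0.09, edgeR adjusted p = 7.05e-13). In these 3 genes the Dox level was more than 2-fold the NoDox level. FBLN2, an extracellular matrix fibulin, had 34.9, 37.5 and 37.0 CPM in the Dox libraries, against 13.0, 15.6 and 12.5 CPM in the NoDox libraries (1.41 ± 0.09, edgeR adjusted p = 6.19e-14). BCAM, a laminin receptor, had 59.6, 61.9 and 65.0 CPM in the Dox libraries, against 25.3, 25.7 and 27.7 CPM in the NoDox libraries (1.24 ± 0.08, edgeR adjusted p = 5.31e-14). HLA-B, an antigen-presenting MHC class I chain, had 40.4, 48.3 and 54.9 CPM in the Dox libraries, against 19.5 to 20.2 CPM in the NoDox libraries (1.26 ± 0.09, edgeR adjusted p = 1.92e-12). HLA genes are near-identical copies, so how reads were shared among them is uncertain. SPEG, a kinase known from striated muscle, had 60.5, 64.6 and 56.4 CPM in the Dox libraries, against 26.3, 26.8 and 24.4 CPM in the NoDox libraries (1.23 ± 0.09, edgeR adjusted p = 1.59e-12), and KIAA0513 had 35.7, 35.1 and 27.7 CPM in the Dox libraries, against 11.6, 11.8 and 13.7 CPM in the NoDox libraries (1.41 ± 0.10, edgeR adjusted p = 1e-12). These 12 genes were chosen among those whose groups did not overlap.

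**Figure D2:**
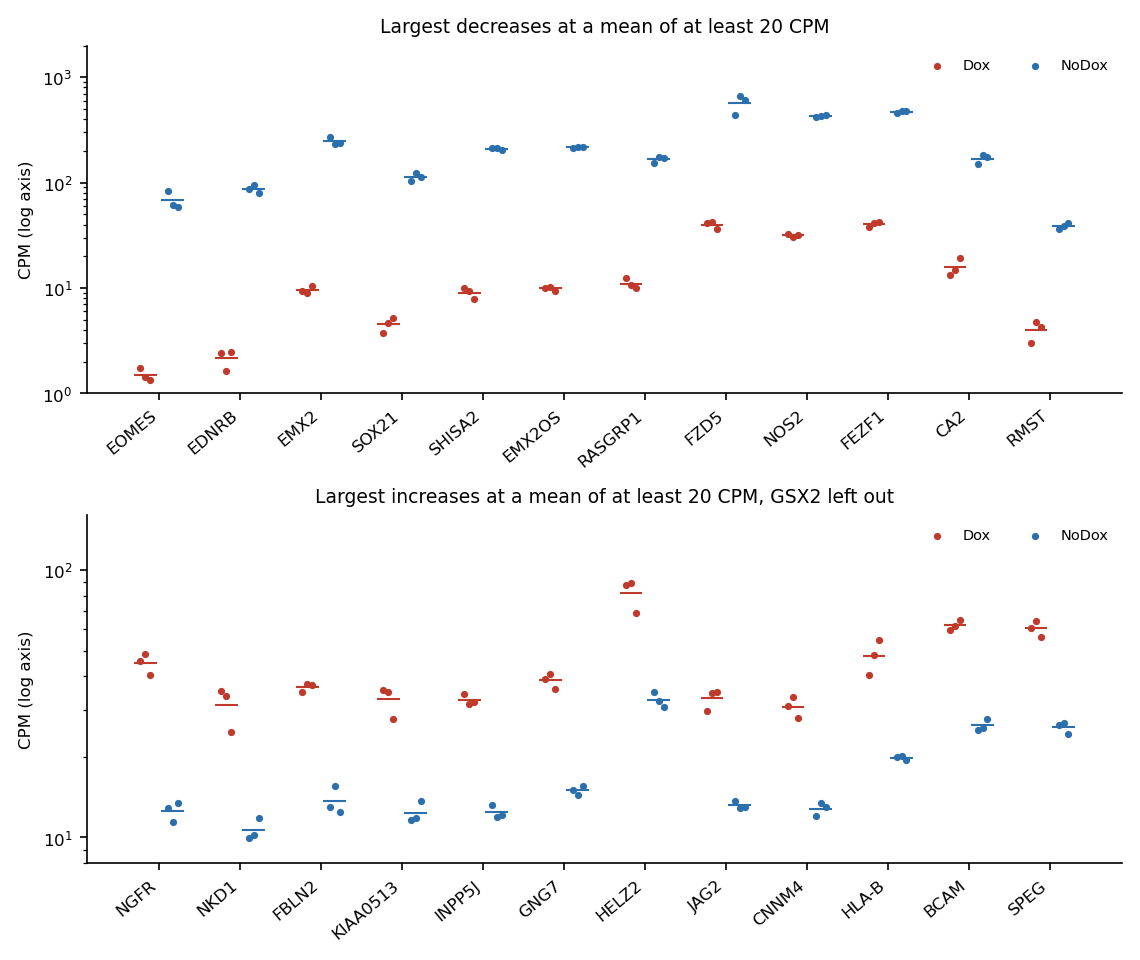
CPM (log axis) of 12 of the largest decreases (top) and the 12 largest increases besides GSX2 and the transgene (bottom) at a mean of at least 20 CPM, with each of the 3 Dox (red) and 3 NoDox (blue) libraries as a point and the group mean as a line. The 24 genes were chosen among those whose groups do not overlap, and the gaps of the decreases are wider than those of the increases.

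Genes were also ranked by their change in mean CPM, a ranking that favours abundant transcripts. The 6 largest losses in mean CPM were DLK1, ACTB, NNAT, ACTG1, NES and TUBA1A. DLK1, an imprinted non-canonical Notch ligand, had 3382, 3974 and 4562 CPM in the Dox libraries, against 6316, 7154 and 7305 CPM in the NoDox libraries (-0.80 ± 0.08, edgeR adjusted p = 8.15e-09). NNAT, the imprinted gene for neuronatin, had 629, 628 and 821 CPM in the Dox libraries, against 2121, 2045 and 1919 CPM in the NoDox libraries (-1.55 ± 0.12, edgeR adjusted p = 8.15e-10). NES, the progenitor intermediate filament nestin, had 1041, 999 and 888 CPM in the Dox libraries, against 2134, 2026 and 1866 CPM in the NoDox libraries (-1.04 ± 0.06, edgeR adjusted p = 1.05e-13). These genes were chosen among those whose groups did not overlap. Dox replicate 3 was the Dox library nearest to NoDox for DLK1 and NNAT but not for NES. ACTB and ACTG1, the cytoplasmic actins, had log2 fold changes of -0.55 ± 0.07 and -0.58 ± 0.06, and TUBA1A, the main alpha tubulin of young neurons, had -0.74 ± 0.08. Actins and tubulins have near-identical copies and pseudogenes, so their single values are uncertain.

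The largest gains in reads, besides GSX2 and the transgene, included those of UBB, PLEC, POLR2A, NLGN2 and CACNA1H. PLEC, the cytoskeletal linker plectin, had 305, 346 and 346 CPM in the Dox libraries, against 201, 180.3 and 182 CPM in the NoDox libraries (0.82 ± 0.07, edgeR adjusted p = 3.57e-11). POLR2A, the largest subunit of RNA polymerase II, had 533, 475 and 392 CPM in the Dox libraries, against 339, 339 and 347 CPM in the NoDox libraries (0.45 ± 0.10, edgeR adjusted p = 0.000474). CACNA1H, a T-type calcium channel, had 169, 164 and 142 CPM in the Dox libraries, against 103, 95.7 and 106 CPM in the NoDox libraries (0.64 ± 0.07, edgeR adjusted p = 1.09e-08). NLGN2, an adhesion protein of inhibitory synapses, had a log2 fold change of 0.34 ± 0.07. UBB, a polyubiquitin gene with near-identical copies, had 740.2, 749.7 and 1184 CPM in the Dox libraries, against 708, 668 and 650.4 CPM in the NoDox libraries (0.40 ± 0.13, edgeR adjusted p = 0.0215). Its increase rested on Dox replicate 3, without which the log2 fold change was 0.14 with an edgeR adjusted p of 0.167. The call was also lost without NoDox replicate 2 or NoDox replicate 3 (edgeR adjusted p of 0.0533 and 0.0668), with no filter (0.0732), with the 12 h libraries alone (0.0816) and with a replicate block (0.0954).

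The balance of increases and decreases shifted with read level. Among the 2179 genes averaging 100 CPM or more, 118 (5.42%) were higher and 953 (43.7%) lower, and 2 rose while 114 fell by at least 2-fold. The ones that rose are GSX2 and the transgene. Among the 3533 genes of 1 to 5 CPM, 899 (25.4%) were higher and 463 (13.1%) lower, with 453 and 214 changed by at least 2-fold. Genes of 20 to 100 CPM lay between, with 1304 higher and 1537 lower, a direction that turned to 3064 higher and 756 lower with library totals as the only scaling. With library totals the 100 CPM class held 535 genes (24.6%) higher and 482 (22.1%) lower, so its direction turned as well, while changes of at least 2-fold were still 2 higher and 82 lower. Without Dox replicate 3 this class held 164 genes higher and 1043 lower.

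Per kilobase of exon, which allows levels of genes to be compared, the 1783 genes of 20 to 100 CPM per kb had 135 higher and 678 lower, of which 2 and 81 changed by at least 2-fold. With library totals this turned to 531 higher and 338 lower. The 5955 genes under 1 CPM per kb had 1270 higher and 689 lower, of which 853 and 439 changed by at least 2-fold. In the 247 genes of at least 100 CPM per kb, 3 were higher and 101 lower, and leaving out Dox replicate 3 moved this to 2 higher and 182 lower, while library totals gave 19 and 54. The median level was 0.379 CPM per kb for genes higher by at least 2-fold, 1.11 for genes lower by at least 2-fold and 3.1 for all genes tested.

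Abundant genes that fell by at least 2-fold included several that shape the forebrain or its signals. SLIT2, an axon repellent, had 30.1, 31.2 and 24.2 CPM in the Dox libraries, against 190.2, 224 and 233 CPM in the NoDox libraries (-2.92 ± 0.11, edgeR adjusted p = 1.96e-15). FST, the activin antagonist follistatin, had 49.9, 48.0 and 54.7 CPM in the Dox libraries, against 318, 299.7 and 310.2 CPM in the NoDox libraries (-2.60 ± 0.08, edgeR adjusted p = 1.14e-20). FZD8, another Frizzled receptor, had 31.8, 26.2 and 33.1 CPM in the Dox libraries, against 166, 187 and 175 CPM in the NoDox libraries (-2.54 ± 0.07, edgeR adjusted p = 6.3e-22). Activin A is part of the differentiation medium in the labels. ENC1, an actin-binding protein of the nervous system, had 43.8, 39.6 and 35.7 CPM in the Dox libraries, against 266, 384 and 329 CPM in the NoDox libraries (-3.04 ± 0.14, edgeR adjusted p = 6.95e-13), and the groups were far apart in all 4 genes.

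**Figure D3:**
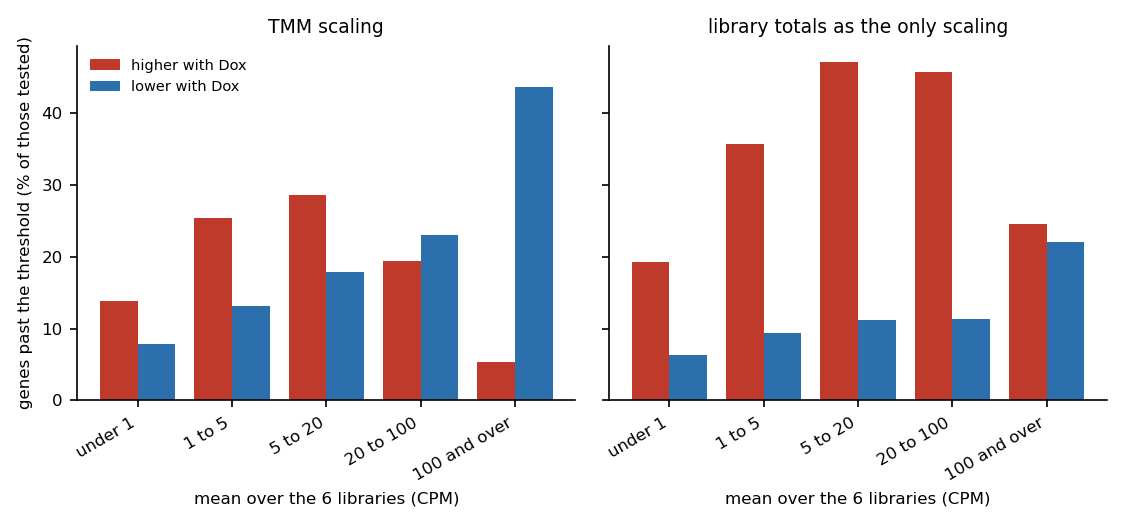
Percent of tested genes that were higher (red) or lower (blue) with Dox at 12 h, by mean CPM over the 6 libraries, under TMM scaling (left) and with library totals as the only scaling (right). Under TMM the top class holds 5.42% higher and 43.7% lower, and with library totals it holds 24.6% higher and 22.1% lower.

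The labels' cell type is that of the starting stem cell line, and the differentiated cells were checked against defining markers of the forebrain. All 12 telencephalic progenitor markers were detected, and all 12 were lower with Dox, where 19.9% of all genes tested were lower. The markers' median log2 fold change was -1.23 (-1.05 with library totals). Their summed level was 3133, 3286 and 3439.5 CPM in the Dox libraries, against 7852, 7835 and 7855 CPM in the NoDox libraries. PAX6, a homeobox factor of cortical progenitors, had 45.0, 42.4 and 46.1 CPM in the Dox libraries, against 234, 219.8 and 246 CPM in the NoDox libraries (-2.39 ± 0.07, edgeR adjusted p = 2.01e-21). FABP7, a radial glial lipid carrier, had 158, 157 and 208 CPM in the Dox libraries, against 443, 369.8 and 368 CPM in the NoDox libraries (-1.17 ± 0.13, edgeR adjusted p = 4.03e-07). VIM and HES5, other radial glial markers, had log2 fold changes of -0.76 ± 0.08 and -0.76 ± 0.08, and no marker of the list had overlapping groups.

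Markers of the subpallium and the LGE were also lower, GSX2 apart, where all genes tested had 19.8% higher and 19.9% lower. Of 14 markers, 1 was higher (GSX2), 12 were lower and 1 did not pass the test (DLX2), with a median log2 fold change of -1.70 (-1.52 with library totals). GSX1 is at the low end of this list and of the homeobox list also when set to its bound, which leaves their medians as they are. MEIS2, a homeobox factor of striatal lineage cells, had 13.7, 12.3 and 11.6 CPM in the Dox libraries, against 41.7, 37.8 and 38.6 CPM in the NoDox libraries (-1.65 ± 0.09, edgeR adjusted p = 2.22e-15). SP8, a zinc finger factor of LGE-derived interneurons, had 49.4, 48.6 and 40.9 CPM in the Dox libraries, against 148, 164 and 159 CPM in the NoDox libraries (-1.76 ± 0.07, edgeR adjusted p = 5.05e-18). The Dox libraries lay below the NoDox libraries in both genes. ISL1, a homeobox factor of striatal neurons, had 0.322, 0.115 and 0.306 CPM in the Dox libraries, against 5.55, 4.43 and 4.00 CPM in the NoDox libraries (-4.21 ± 0.29, edgeR adjusted p = 7.84e-13). GAD1, which makes GABA, had 6.83, 6.43 and 6.32 CPM in the Dox libraries, against 19.5, 14.5 and 17.4 CPM in the NoDox libraries (-1.38 ± 0.18, edgeR adjusted p = 1.88e-06). EBF1, a factor of differentiating striatal neurons, had 4.11, 2.69 and 3.72 CPM in the Dox libraries, against 7.29, 6.03 and 4.97 CPM in the NoDox libraries (-0.79 ± 0.17, edgeR adjusted p = 0.000523), and GAD2 had a log2 fold change of -1.46 ± 0.30.

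The DLX genes, homeobox genes that act below GSX2 in the LGE, differed in size. DLX5 had 1.93, 0.770 and 1.27 CPM in the Dox libraries, against 10.5, 5.53 and 5.54 CPM in the NoDox libraries (-2.40 ± 0.38, edgeR adjusted p = 6.15e-05). DLX6 had 0.393, 0.423 and 0.917 CPM in the Dox libraries, against 4.59, 3.02 and 2.77 CPM in the NoDox libraries (-2.63 ± 0.32, edgeR adjusted p = 2.31e-07). DLX1 had 26.5, 18.7 and 16.8 CPM in the Dox libraries, against 41.6, 26.5 and 29.4 CPM in the NoDox libraries (-0.64 ± 0.23, edgeR adjusted p = 0.0392), and DLX2 had 25.3, 18.0 and 22.0 CPM in the Dox libraries, against 42.0, 22.9 and 24.7 CPM in the NoDox libraries (-0.45 ± 0.29, edgeR adjusted p = 0.236). The groups were apart for DLX5 and DLX6 and overlapped for DLX1 and DLX2. NoDox replicate 1 was the highest library in all 4 genes. The DLX1 call did not hold with library totals or with no filter (edgeR adjusted p of 0.109 and 0.102). It was also lost without Dox replicate 2, Dox replicate 3 or NoDox replicate 1 (edgeR adjusted p of 0.112, 0.141 and 0.188). DLX6-AS1, the long noncoding RNA of the DLX5 and DLX6 locus, had 7.69, 2.42 and 2.14 CPM in the Dox libraries, against 57.5, 23.9 and 22.3 CPM in the NoDox libraries (-3.0 ± 0.52, edgeR adjusted p = 0.000292), with replicate 1 highest in both groups. DLX3, a family member best known from skin and placenta, had 5.01, 4.62 and 2.85 CPM in the Dox libraries, against 1.17, 1.97 and 1.67 CPM in the NoDox libraries (1.38 ± 0.24, edgeR adjusted p = 2.63e-05).

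Markers of other cells were also measured, and their part in the results was not tested. All genes tested had 19.8% higher and 19.9% lower. Of 7 pluripotency markers, 3 passed the filter and all 3 were lower, with a sum of 135, 135 and 140.1 CPM in the Dox libraries and 236, 239 and 225 CPM in the NoDox libraries; POU5F1 had 3 to 5 reads in the Dox libraries and 2 to 7 in the NoDox libraries, and TDGF1 had 0 in all 6. Of 5 tested neural crest markers, 2 were higher and 2 lower, with a sum of 424, 376 and 360.1 CPM in the Dox libraries and 847, 802 and 799.5 CPM in the NoDox libraries, and FOXD3 had 0 to 2 reads per library. Of 5 tested mesenchymal markers, 2 were higher and 2 lower, with a sum of 904, 1278 and 1167 CPM in the Dox libraries and 1352, 1467 and 1505 CPM in the NoDox libraries. Of 3 tested endoderm markers, 0 were higher and 2 lower. Their sum was 23.5, 18.9 and 23.9 CPM in the Dox libraries and 54.0, 57.9 and 58.3 CPM in the NoDox libraries, most of it CXCR4, with SOX17 and FOXA2 at 0 in all 6. Of 3 tested endothelial and blood markers, 1 was higher and 1 lower, and they summed to 9.59 CPM or less in every library. Of 4 tested surface epithelial markers, 1 was higher and 0 lower, with a median of 0.57. With library totals all 4 were higher, with a median of 0.74. Their sum was 336, 365 and 397 CPM in the Dox libraries and 308, 335 and 333 CPM in the NoDox libraries. KRT5 and KRT14 were at 0 in all 6.

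Transcription factor families differed in how many members moved, against 19.8% higher and 19.9% lower over all genes tested and a median of 0.008. Of 101 tested homeobox genes, 16 were higher and 49 lower, with a median log2 fold change of -0.53; with library totals 28 were higher and 46 lower, with a median of -0.35. UNCX, a homeobox factor of the paired-like class, had 0.358, 0.577 and 0.510 CPM in the Dox libraries, against 21.9, 16.7 and 15.8 CPM in the NoDox libraries (-5.23 ± 0.22, edgeR adjusted p = 1.84e-17). OTX2, which specifies the anterior brain, had 105, 99.2 and 99.8 CPM in the Dox libraries, against 337, 357 and 351 CPM in the NoDox libraries (-1.78 ± 0.06, edgeR adjusted p = 3.65e-20). LHX2, a LIM homeobox factor of the cortex, had 114, 109 and 127 CPM in the Dox libraries, against 237, 212 and 213 CPM in the NoDox libraries (-0.92 ± 0.09, edgeR adjusted p = 8.68e-09). The groups did not overlap in these 3 genes. SIX3, a homeobox repressor of the anterior forebrain, had a log2 fold change of -1.13 ± 0.08. Among the 16 homeobox genes that rose, PAX7, a factor of dorsal neural tube and muscle precursors, had 1.54, 2.27 and 2.40 CPM in the Dox libraries, against 0.713, 0.731 and 0.572 CPM in the NoDox libraries (1.60 ± 0.29, edgeR adjusted p = 5.93e-05), and LMX1B, a LIM homeobox factor of dopaminergic and serotonergic neurons, had 0.858, 0.847 and 1.12 CPM in the Dox libraries, against 0.153, 0.0914 and 0.132 CPM in the NoDox libraries (2.85 ± 0.54, edgeR adjusted p = 9.72e-05). Both lay above NoDox in every Dox library, at no more than 2.40 CPM.

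All 5 ZIC genes, zinc finger factors of the dorsal and medial brain, were lower, with a median of -1.88 (-1.70 with library totals). All genes tested had 19.8% higher and 19.9% lower. ZIC1 had 141, 129 and 157 CPM in the Dox libraries, against 425, 443 and 393 CPM in the NoDox libraries (-1.56 ± 0.10, edgeR adjusted p = 8.39e-13). ZIC2 and ZIC4 had log2 fold changes of -1.88 ± 0.09 and -2.09 ± 0.09. Of 16 SOX genes, 4 were higher and 9 lower, and all 9 fell by at least 2-fold. SOX4, which drives neuronal differentiation, had 138, 137 and 141 CPM in the Dox libraries, against 852, 845 and 767 CPM in the NoDox libraries (-2.57 ± 0.08, edgeR adjusted p = 2.03e-21). SOX11, its close relative, had 257, 250.3 and 265 CPM in the Dox libraries, against 765, 761 and 713 CPM in the NoDox libraries (-1.54 ± 0.06, edgeR adjusted p = 3.48e-18). SOX9, a factor of neural stem cells and glia, had 167, 147 and 149 CPM in the Dox libraries, against 348, 365 and 352 CPM in the NoDox libraries (-1.20 ± 0.06, edgeR adjusted p = 1.85e-15). SOX1 and SOX5 had -1.31 ± 0.06 and -2.25 ± 0.11, and SOX13 was among those that rose, at 0.44 ± 0.07. In SOX1, SOX4, SOX9 and SOX11 every Dox library was below every NoDox library.

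Other families of transcription factors had members in both directions, where all genes tested had 19.8% higher and 19.9% lower. The 72 basic helix-loop-helix genes had 20 higher and 29 lower, with a median of -0.03 that turned to 0.15 with library totals. ID4, an inhibitor of these factors, had 94.9, 86.4 and 96.7 CPM in the Dox libraries, against 521, 524 and 528 CPM in the NoDox libraries (-2.50 ± 0.08, edgeR adjusted p = 4.12e-20). NEUROD4, a neurogenic member, had 2.00, 1.77 and 2.04 CPM in the Dox libraries, against 12.4, 17.5 and 15.3 CPM in the NoDox libraries (-2.96 ± 0.24, edgeR adjusted p = 6.91e-10). Of 36 nuclear receptors, 8 were higher (22.2%) and 11 lower (30.6%). Their median of -0.14 turned to 0.04 with library totals, where 13 were higher. NR2F1 and NR2F2, which mark caudal and ventral forebrain, had -1.07 ± 0.20 and -0.83 ± 0.10, and VDR, the vitamin D receptor, had 0.644, 0.539 and 0.510 CPM in the Dox libraries, against 0.0510, 0.0914 and 0 CPM in the NoDox libraries (3.45 ± 0.69, edgeR adjusted p = 0.000184). Of 26 forkhead genes, 5 were higher and 11 lower, with a median of -0.19 (-0.01 with library totals, where 7 were higher and 8 lower), and FOXP1, a factor of striatal neurons, had -0.56 ± 0.08.

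Corepressors of the Groucho/TLE class and their partners moved in both directions, where all genes tested had 19.8% higher and 19.9% lower. Of 25 genes, 6 were higher and 9 lower, with a median of 0.01; with library totals 12 were higher. TLE1, a Groucho-family corepressor, had 27.3, 26.4 and 27.2 CPM in the Dox libraries, against 163, 145 and 151 CPM in the NoDox libraries (-2.51 ± 0.07, edgeR adjusted p = 2.59e-22). TLE4, another of the family, had 118, 112 and 107 CPM in the Dox libraries, against 242, 279 and 265 CPM in the NoDox libraries (-1.22 ± 0.07, edgeR adjusted p = 7.04e-15). TLE5, a short family member without the repression domain of the others, had 226, 228 and 237 CPM in the Dox libraries, against 202, 181 and 192 CPM in the NoDox libraries (0.26 ± 0.08, edgeR adjusted p = 0.00529). HDAC1, a histone deacetylase, had 160.3, 162 and 165 CPM in the Dox libraries, against 109.9, 104 and 114 CPM in the NoDox libraries (0.57 ± 0.05, edgeR adjusted p = 2.28e-10). TLE1 and TLE4 fell while TLE5 and HDAC1 rose, with no overlap between groups in any of the 4.

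The Hedgehog, IGF and Hippo lists had more members lower than higher, where all genes tested had 19.8% higher and 19.9% lower. Of 20 Hedgehog pathway genes, 2 were higher and 10 lower, with a median of -0.25 (-0.07 with library totals). None was higher without Dox replicate 1, Dox replicate 2 or NoDox replicate 1, or with a replicate block, and 1 was without NoDox replicate 2 or NoDox replicate 3. GLI3, whose repressor form restrains ventral fate, had 102, 92.9 and 78.0 CPM in the Dox libraries, against 344, 358 and 388 CPM in the NoDox libraries (-2.0 ± 0.10, edgeR adjusted p = 7.03e-15). SCUBE1, a secreted protein that helps to release SHH, had 239, 219 and 172 CPM in the Dox libraries, against 600.0, 690.5 and 724 CPM in the NoDox libraries (-1.68 ± 0.12, edgeR adjusted p = 8.31e-10). GLI2, the main activator, had -0.39 ± 0.08. PTCH1, the receptor and a target of the pathway, had 47.6, 37.4 and 31.1 CPM in the Dox libraries, against 38.1, 34.0 and 40.1 CPM in the NoDox libraries (0.06 ± 0.10, edgeR adjusted p = 0.694), so its groups overlapped.

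Of 23 genes of the IGF and insulin axis, 3 were higher and 14 lower, with a median of -0.47; with library totals 8 were lower and the median was -0.29. IRS4, an adaptor of the insulin receptor, had 37.4, 33.1 and 27.9 CPM in the Dox libraries, against 209, 242 and 241 CPM in the NoDox libraries (-2.81 ± 0.16, edgeR adjusted p = 1.03e-10). IGFBP5, an IGF binding protein, had 203, 221 and 166 CPM in the Dox libraries, against 384, 489 and 491 CPM in the NoDox libraries (-1.21 ± 0.10, edgeR adjusted p = 1.18e-10). Against these, the growth factor IGF2 had 45.8, 47.1 and 43.4 CPM in the Dox libraries, against 19.7, 23.4 and 24.2 CPM in the NoDox libraries (1.02 ± 0.08, edgeR adjusted p = 6.26e-12). IGFBP4, another binding protein, had 82.3, 86.6 and 87.9 CPM in the Dox libraries, against 41.1, 36.7 and 40.4 CPM in the NoDox libraries (1.12 ± 0.07, edgeR adjusted p = 1.82e-13). The ligand IGF2 rose while IRS4 and IGFBP5 fell, each with groups wholly apart.

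The Hippo list held the kinase cascade, its effectors YAP and TAZ with their TEAD partners, and target genes. Of 27 genes, 1 was higher (3.7%) and 11 lower (40.7%). The median of -0.08 turned to 0.10 with library totals, where 8 were higher. All genes tested had 19.8% higher and 19.9% lower, and those averaging 100 CPM or more had 5.42% and 43.7%. The part of read level in these counts was not tested. CCN1, a matricellular target, had 43.3, 51.0 and 47.7 CPM in the Dox libraries, against 228, 223 and 256 CPM in the NoDox libraries (-2.32 ± 0.08, edgeR adjusted p = 1.62e-20). CCN2 had 49.2, 54.4 and 52.9 CPM in the Dox libraries, against 178, 112 and 138 CPM in the NoDox libraries (-1.45 ± 0.14, edgeR adjusted p = 1.65e-07). ANKRD1, a target often used as a YAP readout, had 6.51, 10.5 and 6.88 CPM in the Dox libraries, against 49.8, 29.6 and 29.2 CPM in the NoDox libraries (-2.17 ± 0.25, edgeR adjusted p = 1.81e-06). The kinases LATS1 and LATS2 and YAP1 itself did not pass the test, while WWTR1, which encodes TAZ, had a log2 fold change of -1.17 ± 0.06. Among receptors for lipid and peptide ligands, LPAR1, a lysophosphatidic acid receptor, had 12.3, 11.0 and 12.0 CPM in the Dox libraries, against 2.96, 2.88 and 3.21 CPM in the NoDox libraries (1.96 ± 0.12, edgeR adjusted p = 1.1e-13). S1PR1, a sphingosine phosphate receptor, had 8.48, 6.43 and 8.16 CPM in the Dox libraries, against 40.2, 41.9 and 41.5 CPM in the NoDox libraries (-2.42 ± 0.11, edgeR adjusted p = 3.54e-17). ECE1, which makes active endothelin, had 59.6, 66.5 and 55.6 CPM in the Dox libraries, against 28.6, 31.8 and 29.6 CPM in the NoDox libraries (1.01 ± 0.08, edgeR adjusted p = 8.59e-12), while the endothelin receptor gene EDNRB fell.

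Adhesion genes were counted by family, beside 19.8% higher and 19.9% lower over all genes tested. Of 44 cadherins outside the clustered loci, 4 were higher and 27 lower, with a median of -0.57 (-0.39 with library totals, where 9 were higher and 22 lower). CDH2, the N-cadherin of neuroepithelial junctions, had 260.4, 249.5 and 229 CPM in the Dox libraries, against 579.6, 579.9 and 573 CPM in the NoDox libraries (-1.23 ± 0.06, edgeR adjusted p = 7.89e-16). PCDH10, a protocadherin of forebrain neurons, had 1.72, 1.62 and 1.38 CPM in the Dox libraries, against 28.8, 25.7 and 25.0 CPM in the NoDox libraries (-4.06 ± 0.16, edgeR adjusted p = 1.53e-18). PCDH17 had 5.79, 5.54 and 5.30 CPM in the Dox libraries, against 34.3, 28.1 and 33.0 CPM in the NoDox libraries (-2.51 ± 0.11, edgeR adjusted p = 1.85e-17). The 54 clustered protocadherins had 0 higher and 3 lower, with a median of -0.07; these genes share exons and similar sequence, so single members are uncertain. Of 62 synaptic adhesion genes, 13 were higher and 36 lower, with a median of -0.52 (-0.34 with library totals). NRXN3, a presynaptic neurexin, had 10.5, 9.74 and 8.77 CPM in the Dox libraries, against 37.6, 39.3 and 44.6 CPM in the NoDox libraries (-2.06 ± 0.11, edgeR adjusted p = 8.59e-15), while NRXN2, of the same family, had 85.1, 86.1 and 73.9 CPM in the Dox libraries, against 38.5, 33.9 and 34.0 CPM in the NoDox libraries (1.21 ± 0.10, edgeR adjusted p = 1.28e-09). NLGN1, a neuroligin of excitatory synapses, had -1.02 ± 0.10, so neurexins had members moving each way, as did neuroligins, with NLGN2 higher.

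Collagens and proteoglycans had more members lower than higher, where all genes tested had 19.8% higher and 19.9% lower. Of 38 collagens, 7 were higher and 20 lower, with a median of -0.27 (-0.09 with library totals, where 11 were higher and 14 lower). COL2A1, the most read collagen here, had 1576, 1720.1 and 1574 CPM in the Dox libraries, against 2179, 2442 and 2385 CPM in the NoDox libraries (-0.52 ± 0.06, edgeR adjusted p = 4.74e-08). COL4A1, a basement membrane chain, had 130.2, 146 and 101 CPM in the Dox libraries, against 225, 235 and 245 CPM in the NoDox libraries (-0.90 ± 0.09, edgeR adjusted p = 1.4e-08). Of 33 proteoglycans and heparan sulphate enzymes, 4 were higher and 21 lower, with a median of -0.42; with library totals 8 were higher and 16 lower. GPC4, a glypican, had 397, 337 and 324 CPM in the Dox libraries, against 789.5, 771 and 775 CPM in the NoDox libraries (-1.14 ± 0.07, edgeR adjusted p = 2.12e-14). VCAN, the versican core protein, had -1.17 ± 0.15, while CSPG4, the NG2 proteoglycan, had 27.5, 34.3 and 28.0 CPM in the Dox libraries, against 7.74, 9.92 and 8.40 CPM in the NoDox libraries (1.78 ± 0.12, edgeR adjusted p = 4.14e-13). The Dox and NoDox libraries did not overlap in these 5 genes. Of 43 laminins, nidogens and other basement membrane genes, 10 were higher and 17 lower, with a median of -0.18 that turned to 0.01 with library totals, where 14 were higher and 12 lower.

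Voltage-gated ion channels and the interferon list had more members higher than lower, where all genes tested had 19.8% higher and 19.9% lower. Of 53 voltage-gated channel genes, 21 were higher and 8 lower, with a median of 0.33 (0.51 with library totals). CACNA1A, the P/Q-type calcium channel, had 45.5, 55.2 and 52.8 CPM in the Dox libraries, against 30.2, 28.2 and 34.0 CPM in the NoDox libraries (0.73 ± 0.09, edgeR adjusted p = 1.82e-07). Of 37 synaptic vesicle genes, 16 were higher and 11 lower. SYN1, a synapsin, had 13.4, 12.2 and 12.4 CPM in the Dox libraries, against 8.76, 7.40 and 7.12 CPM in the NoDox libraries (0.71 ± 0.12, edgeR adjusted p = 1.45e-05), whereas SYT4, a synaptotagmin, had 7.90, 6.35 and 7.29 CPM in the Dox libraries, against 34.5, 31.0 and 31.6 CPM in the NoDox libraries (-2.17 ± 0.12, edgeR adjusted p = 1.97e-15). In all 3 genes the groups were apart.

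Of 24 interferon and innate response genes, 16 were higher (66.7%, with 19.8% over all genes tested) and 0 lower. Their median was 0.61 (0.79 with library totals and 0.55 without Dox replicate 3). Their sum was 714, 727 and 750.3 CPM in the Dox libraries, against 561, 552 and 551 CPM in the NoDox libraries. Those that rose included antigen-presentation genes and interferon-induced genes such as MX1, IRF7 and IFI6 (1.16 ± 0.30, 0.66 ± 0.11 and 0.96 ± 0.14). B2M, the light chain of MHC class I, had 63.9, 61.1 and 73.8 CPM in the Dox libraries, against 42.2, 40.3 and 38.9 CPM in the NoDox libraries (0.71 ± 0.08, edgeR adjusted p = 5.68e-08). TAP1, which carries peptides to it, had 7.37, 6.66 and 6.47 CPM in the Dox libraries, against 3.16, 3.47 and 2.95 CPM in the NoDox libraries (1.10 ± 0.15, edgeR adjusted p = 7.01e-07). HLA-C had a log2 fold change of 0.44 ± 0.06.

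Most genes of the cholesterol list were lower in RNA, where all genes tested had 19.8% higher and 19.9% lower. Of 31 synthesis genes and SREBP targets, 0 were higher and 26 lower, with a median of -0.48 (-0.30 with library totals), and their sum was 6553, 6419 and 5866 CPM in the Dox libraries, against 10236, 9980.3 and 10096 CPM in the NoDox libraries. HMGCS1, which makes HMG-CoA, had 452, 470.3 and 474 CPM in the Dox libraries, against 1131, 1135 and 1110.5 CPM in the NoDox libraries (-1.27 ± 0.06, edgeR adjusted p = 5.65e-16). INSIG1, the sterol sensor partner that restrains SREBP, had 101, 93.9 and 99.7 CPM in the Dox libraries, against 214, 218 and 213 CPM in the NoDox libraries (-1.13 ± 0.07, edgeR adjusted p = 1.45e-13). SQLE, squalene epoxidase, had 140.3, 128 and 125 CPM in the Dox libraries, against 229, 224 and 221 CPM in the NoDox libraries (-0.78 ± 0.07, edgeR adjusted p = 7.31e-11). The 3 Dox libraries lay below the 3 NoDox libraries in each of these genes.

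Genes of general RNA and protein metabolism moved less, and several of their counts rested on Dox replicate 3 or on the scaling. Of 82 cytosolic ribosomal protein genes, 0 were higher and 9 lower, with a median of -0.13 that turned to 0.04 with library totals. Without Dox replicate 3, 73 of the 82 were lower, with a median of -0.32, while 5 were lower without Dox replicate 1 and 3 without NoDox replicate 1. Their sum was 34982, 37565 and 50809.6 CPM in the Dox libraries, so Dox replicate 3 was the highest, against 48033, 43872 and 44183 CPM in the NoDox libraries. The 81 nuclear-encoded respiratory chain genes had 4 higher and 3 lower, against 1 higher and 20 lower without Dox replicate 3 and 27 higher and 0 lower with library totals. Of 105 spliceosome, SR and HNRNP genes, 6 were higher (5.71%) and 48 lower (45.7%), with a median of -0.14. Over all genes tested 19.8% were higher and 19.9% lower. Among all genes averaging 100 CPM or more it was 5.42% and 43.7%, near the shares of this list. The part of read level in these counts was not tested. With library totals the counts of the list were 22 and 20 and its median 0.03. HNRNPA1, an abundant RNA-binding protein with many pseudogene copies, had 1243, 1326 and 1735 CPM in the Dox libraries, against 1901, 1894 and 1878 CPM in the NoDox libraries (-0.40 ± 0.09, edgeR adjusted p = 0.0006), with Dox replicate 3 nearest to NoDox.

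Of 67 microRNA and small nucleolar RNA host genes, 0 were higher and 29 lower, with a median of -0.32 (-0.14 with library totals, where 5 were higher and 22 lower). All genes tested had 19.8% higher and 19.9% lower. MIR17HG, host of the miR-17 to 92 cluster, had 4.65, 5.31 and 6.17 CPM in the Dox libraries, against 10.1, 9.51 and 9.06 CPM in the NoDox libraries (-0.84 ± 0.13, edgeR adjusted p = 4.21e-06). SNHG1 had 72.0, 75.1 and 82.1 CPM in the Dox libraries, against 111, 123 and 119.6 CPM in the NoDox libraries (-0.63 ± 0.08, edgeR adjusted p = 9.89e-08). MEG3, the imprinted noncoding RNA of the DLK1 locus, had 43.9, 47.5 and 44.8 CPM in the Dox libraries, against 77.5, 95.8 and 92.8 CPM in the NoDox libraries (-0.97 ± 0.13, edgeR adjusted p = 8.99e-06), and its protein-coding neighbour DLK1 fell as well.

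**Figure D4:**
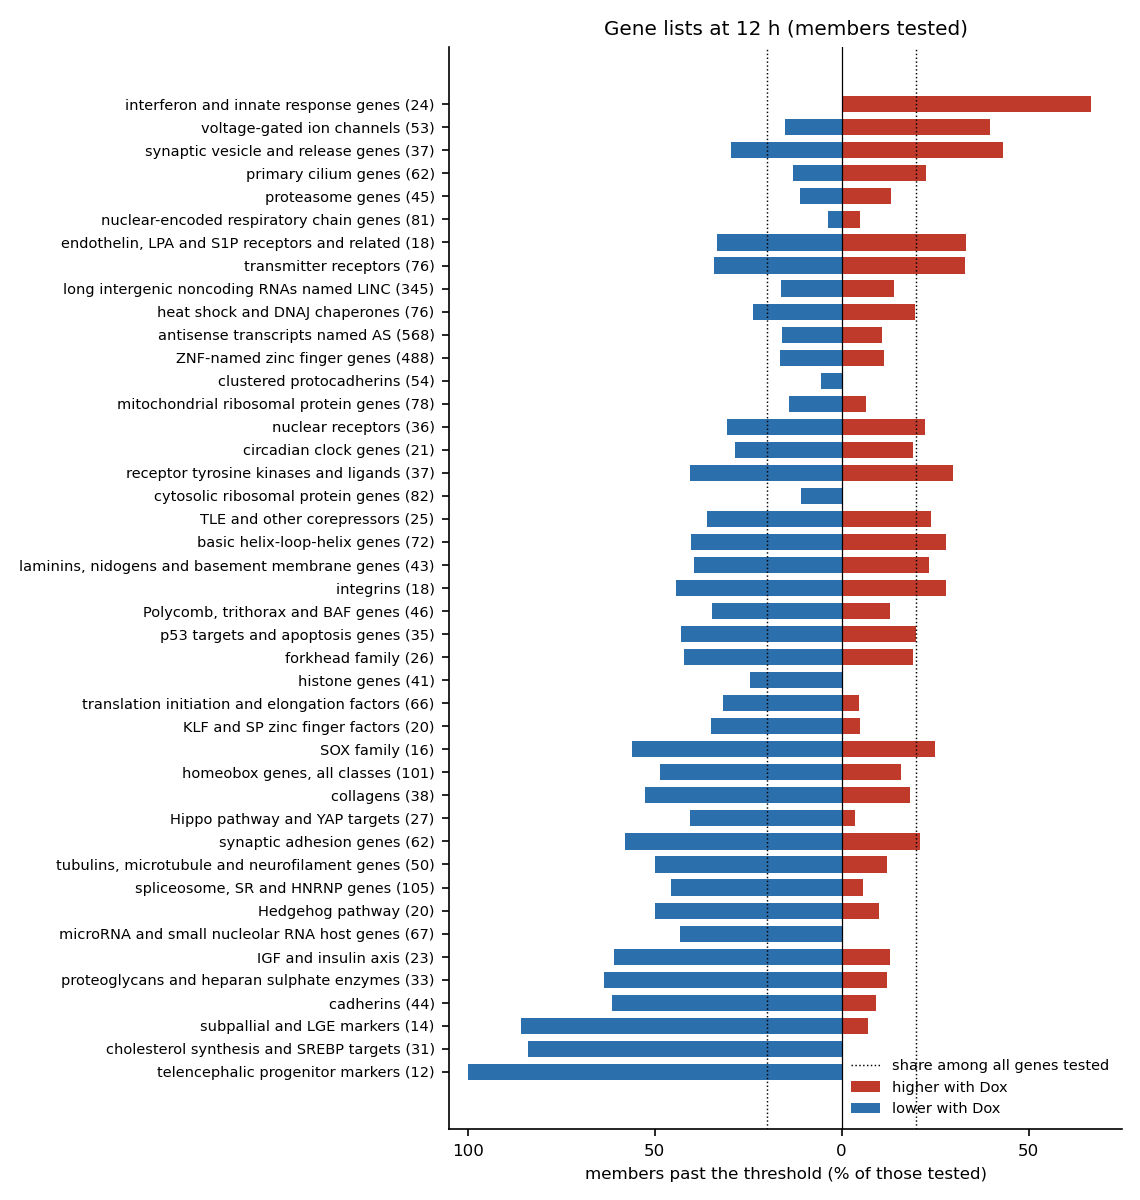
Share of tested members of each gene list that were higher (red) or lower (blue) with Dox at 12 h, with the share over all genes tested as a dotted line and the number tested beside each name. Lists are ordered by the share higher minus the share lower. The telencephalic list has all 12 members lower and the cholesterol list 26 of 31, and the interferon list has 16 of 24 higher and 0 lower.

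The 3 day 10 libraries, made before the drug was added, placed the 12 h levels of both groups. Of the 930 genes lower by at least 2-fold, all 3 Dox libraries lay below all 3 day 10 libraries in 768 (82.6%, with 23.5% over all genes tested), and all 3 NoDox libraries lay above day 10 in 320 (34.4%, with 21.3% over all genes). Of the 1092 genes higher by at least 2-fold, the Dox libraries lay above day 10 in 862 (78.9%, with 25.1% over all genes), and the NoDox libraries lay below day 10 in 359 (32.9%, with 22.5% over all genes). Because these genes were chosen by the difference between the Dox and NoDox libraries, their shares are in part fixed by the choice and are not read against those over all genes. With library totals, the Dox libraries lay below day 10 in 734 of the lower genes (78.9%, 14.4% over all genes) and above it in 927 of the higher genes (84.9%, 39.0% over all genes). FZD5 had 397, 558 and 581 CPM at day 10, SHISA2 had 244, 237 and 246 CPM and EOMES had 82.9, 71.6 and 74.9 CPM, all far above their Dox libraries at 12 h.

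PLN, IL23R and PHOSPHO1 had no reads in 1 of the groups. PLN, the calcium pump regulator phospholamban, had 0 reads in the Dox libraries and 0.611, 0.183 and 0.747 CPM in the NoDox libraries, at least 12.6-fold lower with Dox. IL23R, a cytokine receptor chain, had 2.43, 1.73 and 1.07 CPM in the Dox libraries and 0 reads in the NoDox libraries, at least 37.3-fold higher. PHOSPHO1, a phosphatase of bone mineralisation, had 0.501, 0.50 and 0.612 CPM in the Dox libraries and 0 in the NoDox libraries, at least 11.5-fold higher. These bounds take 3 counts over the group as the floor.

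The effect at 12 h was set beside that at 24 h, by testing the difference of the 2 Dox effects, which share no library. The difference (12 h minus 24 h) was above 0 for 2917 genes (14.8%) and below 0 for 3157 (16.1%); with library totals the counts were 5719 and 1914. Of the 1092 genes higher by at least 2-fold at 12 h, the median log2 fold change was 1.46 at 12 h and 0.52 at 24 h, and the difference was above 0 for 487, below 0 for 14 and not past the test for 591. Of the 930 lower genes, the medians were -1.59 and -0.63, and the difference was below 0 for 538, above 0 for 37 and not past the test for 355. Because these genes were chosen by their 12 h change, a smaller median at 24 h is in part fixed by the choice.

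Several genes at the low end of the difference had opposite signs at the 2 times. DUSP6, a phosphatase that switches off ERK, had 6.47, 6.35 and 8.56 CPM in the Dox libraries, against 38.9, 50.4 and 41.1 CPM in the NoDox libraries at 12 h, and its log2 fold change was -2.62 at 12 h and 2.66 at 24 h (difference -5.29 ± 0.16, edgeR adjusted p = 3.72e-20). DIO3, which inactivates thyroid hormone, had 4.40, 4.20 and 3.82 CPM in the Dox libraries, against 22.7, 26.3 and 23.5 CPM in the NoDox libraries, with -2.54 at 12 h and 2.15 at 24 h (difference -4.68 ± 0.14). CDH6, a cadherin that marks parts of the forebrain, had 5.19, 4.54 and 5.05 CPM in the Dox libraries, against 24.7, 18.3 and 21.9 CPM in the NoDox libraries, with -2.13 at 12 h and 2.35 at 24 h (difference -4.48 ± 0.19). In these 3 genes the Dox libraries lay below NoDox at 12 h, and the fold change had the opposite sign at 24 h. IGFBP3, an IGF binding protein, had 17.1, 21.4 and 22.5 CPM in the Dox libraries, against 98.7, 117 and 108 CPM in the NoDox libraries, with -2.42 and 1.92 at the 2 times (difference -4.34 ± 0.20). SLITRK2, a synaptic adhesion protein, had 4.94, 3.27 and 3.06 CPM in the Dox libraries, against 23.2, 23.8 and 24.3 CPM in the NoDox libraries, with -2.64 and 1.31 (difference -3.95 ± 0.17). FZD5 had -3.83 at 12 h and 0.34 at 24 h (difference -4.17 ± 0.23).

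At the other end, GSX2 had a log2 fold change of 5.07 at 12 h and -1.04 at 24 h (difference 6.11 ± 0.30, edgeR adjusted p = 3.71e-11). HELZ2 had 1.34 and -0.35 at the 2 times, and KIAA0513 had 1.41 and -0.24. GPRIN2, a neurite outgrowth protein regulated by G proteins, had 39.4, 41.7 and 31.9 CPM in the Dox libraries, against 22.8, 22.9 and 21.5 CPM in the NoDox libraries at 12 h, with 0.76 at 12 h and -0.82 at 24 h. PPP2R5B, a regulatory subunit of the phosphatase PP2A, had 54.6, 54.7 and 58.5 CPM in the Dox libraries, against 32.7, 31.3 and 30.7 CPM in the NoDox libraries, with 0.82 and -0.56. ZCCHC12 had 25.3, 31.0 and 30.8 CPM in the Dox libraries, against 16.5, 15.8 and 17.9 CPM in the NoDox libraries, with 0.79 and -0.59. FREM2, an extracellular matrix protein, was lower at both times, with 24.9, 21.9 and 14.3 CPM in the Dox libraries, against 28.0, 31.9 and 33.8 CPM in the NoDox libraries at 12 h and log2 fold changes of -0.60 and -2.02. Other genes had changes of like size at both times. EMX2OS had -4.44 at 12 h and -3.96 at 24 h, RASGRP1 had -3.91 and -4.29, BCAM had 1.24 and 1.28, and FBLN2 had 1.41 and 1.60. The difference passed the test for EMX2OS (-0.48 ± 0.16) and did not for RASGRP1, BCAM or FBLN2 (0.38 ± 0.16, -0.04 ± 0.10 and -0.19 ± 0.12).

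**Figure D5:**
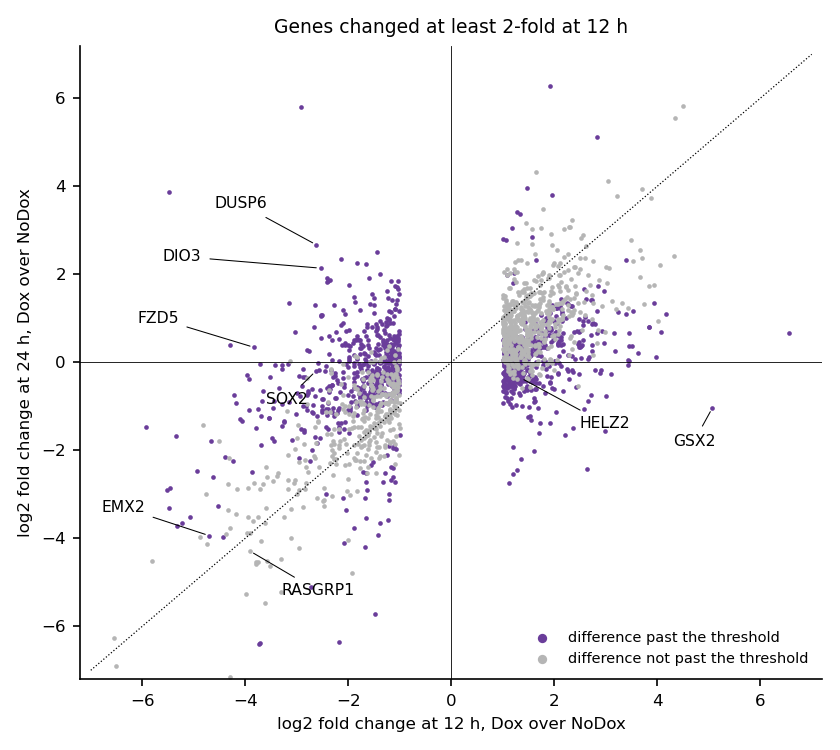
Log2 fold change of Dox over NoDox at 12 h (x axis) and at 24 h (y axis) for the 2022 genes changed by at least 2-fold at 12 h, coloured by whether the difference of the effects passed the test, with equal effects on the dotted line; 5 genes lie outside the axes. The higher genes have medians of 1.46 at 12 h and 0.52 at 24 h and the lower genes -1.59 and -0.63, and DUSP6 and DIO3 lie on opposite sides of 0 at the 2 times.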

How the data were processed

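Poly-A selected RNA of 21 libraries was sequenced after a directional kit (NEBNext Ultra II Directional), per the labels. The submitters' processing notes name STAR 2.7.9, Subread 2.0.3 and DESeq2 with the build hg38; which annotation was counted, and whether by strand, is not given in the sources used here. Per gene, the deposited count table holds whole read counts made by the authors, with 1 added row for the transgene. A second deposited table holds the authors' normalized counts, a signal of counts divided by 1 size factor per library, for 19874 features.

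Counts of all 7 groups (3 libraries each) were fitted together with edgeR 4.0.16 (R 4.3.3) by robust quasi-likelihood after filterByExpr and TMM scaling. This left 19655 features with 99.92% of the reads, a biological coefficient of variation of 7.24% and 14 residual degrees of freedom. Dox was set against NoDox at 12 h, and that effect against the one at 24 h, with Benjamini-Hochberg adjustment over all genes tested and a threshold of 0.05. Standard errors are approximate, the absolute log2 fold change divided by the square root of F. CPM per kb used the table's exon length. The steps were tested on simulated data. Alternatives were other scalings, filters, samples and replicate sets, a replicate block, DESeq2 1.42.0's Wald test, and limma 3.58.1 on log2 of the normalized counts plus 1. Counts of list members and level classes under other scalings, and the day 10 position under library totals, were alternatives chosen after seeing the data. Counting limits and bounds cover counting error only.

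Genes were named by rule: the transgene, GSX2 and GSX1; the 12 largest increases and decreases at 20 CPM or more with groups apart; the 6 largest gains and losses in CPM; genes without reads in 1 group; up to 4 called members of each list with the largest change; and the 6 highest and lowest differences between 12 h and 24 h. Other list members and promoter genes are named besides these, and some genes the rule takes are not reported here. The comparison, the lists and the named members were chosen with earlier results of these data known.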

Additional observations from a re-analysis of the deposited data

Results flagged for a closer look

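The effect of Dox at 12 h differed from that at 24 h, by the interaction test in edgeR, in many genes named by the rule. Of these, 32 are given here, from the transgene, GSX2, the largest increases and decreases, and the extremes of the difference. The extremes were chosen by this same test, so their passing was fixed by the choice. Over all genes tested the difference was above 0 for 14.8% and below 0 for 16.1%. Values are log2 fold changes at 12 h minus those at 24 h, and they are given without an explanation.

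Among genes higher at 12 h, the difference was 4.87 for the transgene row, 6.11 for GSX2, 0.89 for NGFR, 1.39 for NKD1, 1.65 for KIAA0513 and 1.12 for INPP5J. It was 1.13 for GNG7, 1.69 for HELZ2, 1.09 for JAG2, 1.05 for CNNM4, 0.46 for HLA-B and 1.16 for SPEG. The transgene difference had a standard error of 1.30 (edgeR adjusted p = 0.00837), and its NoDox libraries averaged 0.227 CPM at 12 h and 0.135 CPM at 24 h. GPRIN2 had 1.58, PPP2R5B 1.38 and ZCCHC12 1.38.

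Among genes lower at 12 h, the difference was -2.17 for EOMES, -1.62 for EDNRB, -0.76 for EMX2, -2.87 for SOX21 and -1.26 for SHISA2. It was -0.48 for EMX2OS, -4.17 for FZD5, -2.69 for NOS2, -2.28 for FEZF1, -1.65 for CA2 and -3.14 for RMST. The lowest were -5.29 for DUSP6, -4.68 for DIO3, -4.48 for CDH6, -4.34 for IGFBP3 and -3.95 for SLITRK2. FREM2 differed the other way (1.41), being lower by more at 24 h.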

How the results depend on the processing

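The scaling set the balance of calls. With library totals as the only scaling, the median log2 fold change of all genes moved by 0.179, 7340 genes were higher and 2213 lower (76.8% of calls higher, against 49.9% under TMM), and the 12 h minus 24 h difference was above 0 for 5719 genes and below 0 for 1914. Among genes averaging 5 CPM or more, 206 were higher and 444 lower by at least 2-fold, where fewer genes were tested. Higher and lower genes numbered 3720 and 4117 with DESeq2 size factors, 3669 and 4166 with DESeq2's Wald test, 3467 and 4092 with limma, 3623 and 3783 with no filter, and 3070 and 3345 with the 12 h libraries alone. Leaving out 1 library of the 12 h groups gave 3275 to 3771 higher and 3421 to 3987 lower, with 995 to 1071 and 886 to 965 changed by at least 2-fold. Of 3828 values of 280 named genes, 3739 kept direction and side of the threshold. PTCH1, not called in any of them, ranged over -0.13 to 0.19 when 1 library was left out, negative without Dox replicate 1 or NoDox replicate 2 (-0.01).

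Replicate numbers did not clearly pair the samples at 12 h. Same-numbered Dox and NoDox libraries correlated at 0.056, 0.022 and -0.014 there, and not every library correlated best with its own number. At 24 h the values were 0.062, 0.036 and 0.031, and each library correlated best with its own number. With the replicate number as a block, 2868 genes were higher and 3123 lower, and the difference was above 0 for 2852 and below 0 for 3275. The block made DLX2 pass (-0.44, edgeR adjusted p = 0.018). Under it, 4 of 36 nuclear receptors and 33 of 488 ZNF-named genes were higher, against 8 and 55 with the 7 groups fitted together. Of 18 integrins 5 were lower, against 8, and of 66 translation factors 10, against 21. Calls over all genes tested were also fewer than the 3898 higher (19.8%) and 3912 lower (19.9%) of the 7 groups fitted together. The cause of these moves was not tested. Depth limits the 3379 genes under 1 CPM, where the floor per 12 h library was 0.107 to 0.153 CPM.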

Other observations

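Other gene lists gave the following counts, to be set beside 19.8% higher and 19.9% lower over all genes tested. Of 21 circadian clock genes, 4 were higher and 6 lower (7 and 2 with library totals). Of 35 p53 target and apoptosis genes, 7 were higher and 15 lower, with a median of -0.10 that turned to 0.08 with library totals. Of 41 histone genes, 0 were higher and 10 lower, a list of near-identical copies whose single members are uncertain in poly-A libraries. Of 488 zinc finger genes with a ZNF symbol, 55 were higher and 81 lower, against 168 and 33 with library totals. Of 345 intergenic noncoding RNAs with a LINC symbol, 48 were higher and 56 lower (90 higher with library totals). Of 62 primary cilium genes, 14 were higher and 8 lower (35 and 1 with library totals). Of 76 transmitter receptors, 25 were higher and 26 lower.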
